A study of Homo sapiens with 24 samples.

Results

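The adenoviral protein E1A has no enzymatic activity of its own and acts through the host proteins that it binds. The RNA of 9 genes that encode such host cofactors was followed here in sensitive and oxaliplatin-resistant colorectal cancer cells. These genes were EP300, CREBBP, EP400, TRRAP, KAT5, KAT2A, KAT2B, CTBP1 and CTBP2, chosen by symbol because their products bind E1A directly or sit in complexes that E1A binds. Of the 9 members, 8 were read from a table of estimated counts of 33113 genes, and TRRAP was read from a second table of 37967 genes with length-scaled counts.

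RNA was sequenced in 24 samples that form 8 groups of 3 biological replicates. HCT116 is an epithelial line from a human colorectal carcinoma, and HCT116 oxpl-R is its derivative selected by repeated pulses of oxaliplatin, a platinum drug that damages DNA. All 8 groups carried a Tet-On system for E1A, which doxycycline switches on. In each line the control group received nothing, the E1A group received 0.5 µg/mL doxycycline, the oxaliplatin group received 25 µM oxaliplatin for 24 h, and the E1A + oxaliplatin group received doxycycline 3 h before the drug. No group received doxycycline without carrying the transgene, so the effects of doxycycline and of E1A cannot be told apart, and E1A RNA was not measured here. Karyotyping in the study found HCT116 oxpl-R cells to be hypotetraploid, with rearranged chromosomes and chromosome numbers that vary from cell to cell. HCT116 oxpl-R is 1 selected population, so a difference between the lines describes these cells and not resistance in general.

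The cofactors fall into 4 functional groups. EP300 and CREBBP encode p300 and CBP, closely related acetyltransferases that acetylate histones and many transcription factors, and E1A competes with those factors for them. EP400 encodes the ATPase p400, TRRAP encodes a large scaffold protein and KAT5 encodes the acetyltransferase TIP60, and these products meet in the p400/TIP60 complex that remodels and acetylates chromatin at promoters and at DNA breaks. KAT2A (GCN5) and KAT2B (PCAF) encode alternative acetyltransferases of the SAGA and ATAC coactivator complexes. CTBP1 and CTBP2 encode corepressors that recruit histone deacetylases and demethylases and that the C-terminal region of E1A binds through a short motif.

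The epithelial markers EPCAM, CDH1, KRT8, KRT18 and KRT19 were present in all 24 samples, with a summed level of 149856 to 477445 normalized counts. The summed level was 0 to 25.6 for 3 haematopoietic markers, 0 to 18.9 for 2 endothelial markers and 413 to 1197 for 4 fibroblast markers, of which COL1A1 carried nearly all while DCN was at 0 in 17 and LUM in 18 samples. The counts of the first table summed to 24838095 to 37927720 per sample. In 9 libraries the profile correlated better with a library of another group than with either replicate of its own group. Among these were all 3 HCT116 oxpl-R E1A libraries, each closer to an HCT116 oxpl-R control library (r = 0.9825 to 0.9902) than to its own replicates (r up to 0.9797). Others were HCT116 oxaliplatin replicate 3 and HCT116 E1A + oxaliplatin replicate 1, which resembled each other (r = 0.9846) more than their own replicates (r up to 0.9683 and 0.9705). Several results that rest on these 2 HCT116 libraries are given with and without them. Among 21 targets of E2F, the factor that E1A releases from the retinoblastoma protein, 15 rose with doxycycline in HCT116 oxpl-R cells under oxaliplatin (background 1.29% of 19453 genes), and 0 passed the test in each of the other 3 doxycycline comparisons.

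Promoter windows are shown for the member that differed upward between the lines, KAT2B, for the member with the largest downward difference, CREBBP, and for EP300, the paralog of CREBBP. Each window spans 250 bases before to 50 bases after a RefSeq transcription start on GRCh38.p14 and is written 5′ to 3′ on the strand of the gene. Capitals mark the GC box GGGCGG on either strand, the binding motif of SP factors.
KAT2B, plus strand, chr3:20040196-20040495: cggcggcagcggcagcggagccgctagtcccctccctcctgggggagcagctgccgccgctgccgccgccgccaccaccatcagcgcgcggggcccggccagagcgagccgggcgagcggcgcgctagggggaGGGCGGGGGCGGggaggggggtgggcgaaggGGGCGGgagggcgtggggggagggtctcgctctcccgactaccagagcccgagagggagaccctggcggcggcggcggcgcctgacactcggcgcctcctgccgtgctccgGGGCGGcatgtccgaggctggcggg
CREBBP, minus strand, chr16:3880664-3880963: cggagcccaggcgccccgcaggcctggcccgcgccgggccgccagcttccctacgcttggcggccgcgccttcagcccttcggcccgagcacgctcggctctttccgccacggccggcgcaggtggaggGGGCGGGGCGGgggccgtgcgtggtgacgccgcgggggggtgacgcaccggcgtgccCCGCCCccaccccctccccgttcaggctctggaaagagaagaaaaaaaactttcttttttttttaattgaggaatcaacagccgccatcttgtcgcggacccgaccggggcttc
EP300, plus strand, chr22:41092342-41092641: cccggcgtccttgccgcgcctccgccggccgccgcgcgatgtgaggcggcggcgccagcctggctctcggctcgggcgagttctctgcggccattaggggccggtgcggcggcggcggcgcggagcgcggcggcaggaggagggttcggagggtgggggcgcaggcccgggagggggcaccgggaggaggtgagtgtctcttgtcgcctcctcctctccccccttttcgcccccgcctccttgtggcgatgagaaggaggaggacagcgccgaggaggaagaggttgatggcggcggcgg
The KAT2B window held 4 GC boxes and the CREBBP window shown held 3, whereas the EP300 window held 0. A window without a match says only that these letters are not in it. A second listed window of CREBBP, not shown, held 4. The motif was present in 9 of the 15 windows listed for 8 members, against 45% of all 35116 windows. An E2F motif, searched as TTTCCCGC, TTTGGCGC, TTTCGCGC or TTTGCCGC on both strands, was present in 1 of the 15 windows, a window of CTBP2, and in 3.31% of all windows. The 3 printed windows held 36 to 40 CpG dinucleotides each, against a median of 14 over all windows.

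Per length, CTBP1 was the most abundant of these mRNAs and KAT2B the least abundant in the controls of both lines. KAT2B lay last in 7 of the 8 groups, and in HCT116 oxpl-R E1A + oxaliplatin samples it lay above EP400, at 3.21 against 2.82 CPM per kb. Levels were compared on the second table as CPM (counts scaled to a common library total) divided by the length of the canonical transcript in kb, so they depend on that choice of transcript. In HCT116 control cells CTBP1 had 80.9 ± 5.20 CPM per kb (SD, n = 3), KAT5 33.7 ± 1.97, KAT2A 22.8 ± 2.15 and CTBP2 21.1 ± 0.0198. The last 2 of these differed by less than the spread of KAT2A. The very long mRNAs formed the next tier, with 8.80 ± 0.355 for TRRAP, 7.11 ± 0.304 for EP300, 7.06 ± 0.197 for CREBBP and 5.61 ± 0.185 for EP400, where EP300 and CREBBP did not differ beyond their spread. KAT2B had 1.11 ± 0.243 CPM per kb in HCT116 control cells and 2.29 ± 0.531 in HCT116 oxpl-R control cells. Its close relative KAT2A was therefore the more abundant SAGA acetyltransferase transcript in both lines, with 16.3 ± 1.39 in HCT116 oxpl-R control cells.

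**Figure D1:**
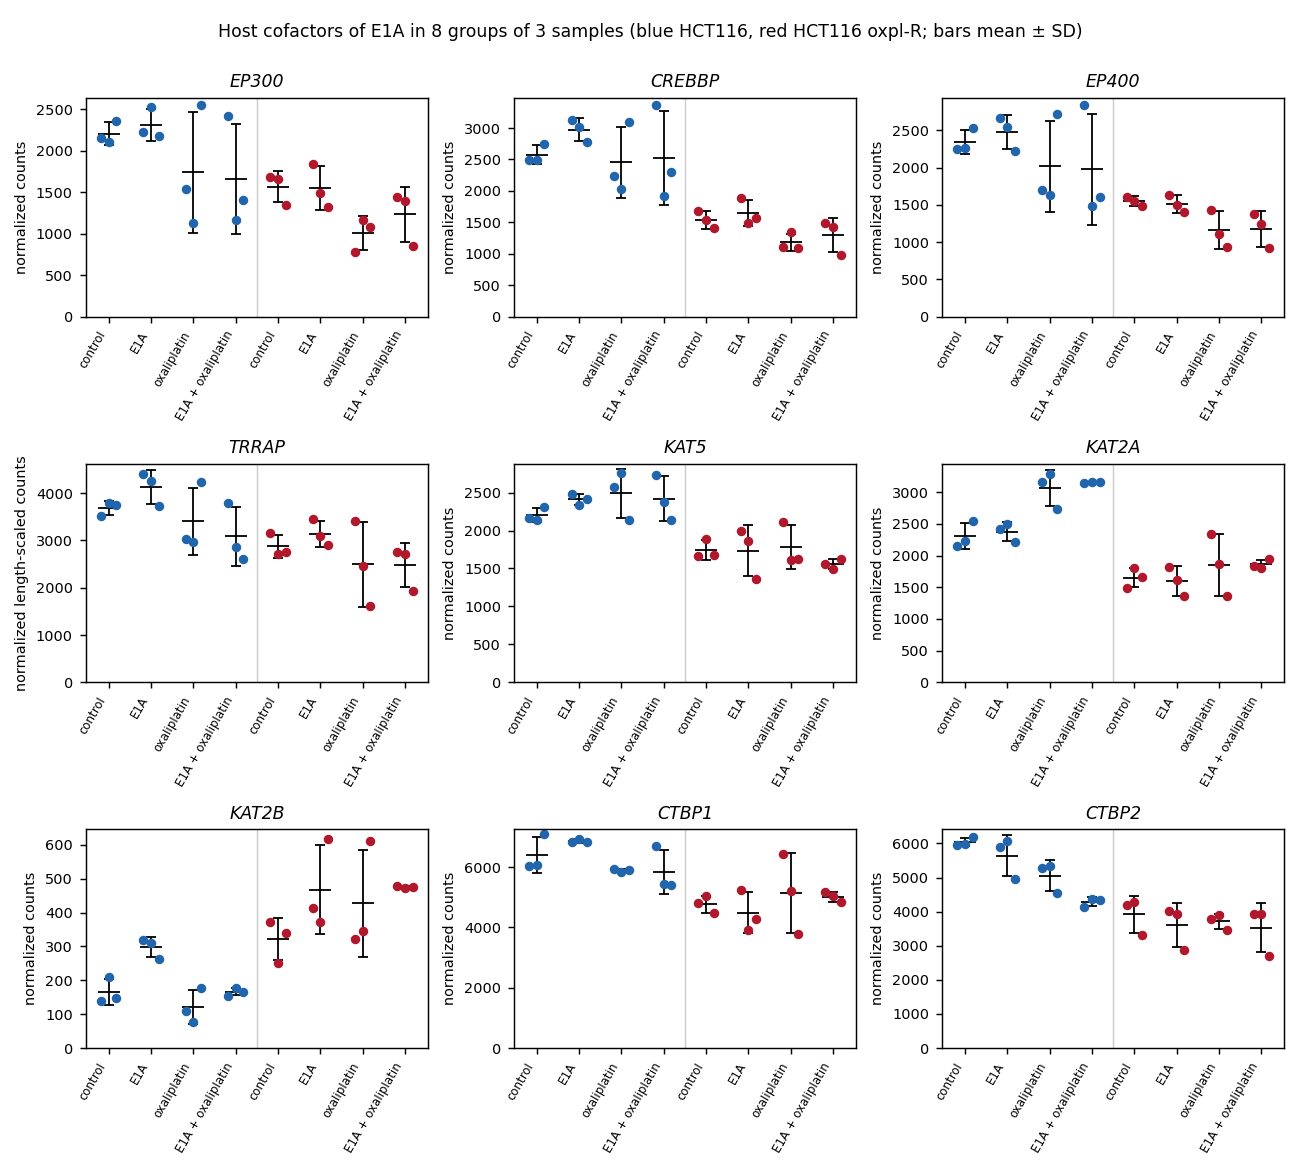
Normalized counts of the 9 members (vertical axes, from 0, length-scaled for TRRAP) in each of the 24 samples, by line and treatment; points are samples, in the order of the replicate numbers, and bars show the mean ± SD of 3. In the controls the 3 HCT116 oxpl-R samples lie below the 3 HCT116 samples for 8 members and above them for KAT2B.

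The first question was whether the RNA of the cofactors changed when doxycycline was given to induce E1A. No member passed the test in HCT116 or HCT116 oxpl-R cells, without or with oxaliplatin. Called means an adjusted p below 0.05 in edgeR's quasi-likelihood test with Benjamini-Hochberg adjustment over all genes of the table. Of all genes tested, 0.432% were called in HCT116 E1A against control, 0.226% in HCT116 oxpl-R E1A against control, 0.0874% in HCT116 E1A + oxaliplatin against oxaliplatin and 1.39% in HCT116 oxpl-R E1A + oxaliplatin against oxaliplatin. At an unadjusted p below 0.05, KAT2B passed in the first of these 4 comparisons and 0 members passed in the other 3, and DESeq2 called 0 members in each of the 4.

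For p300 and CBP, the log2 fold changes with doxycycline ranged from -0.06 to 0.29 for EP300 (SE 0.25) and from 0.04 to 0.21 for CREBBP (SE 0.20), with the highest EP300 value in HCT116 oxpl-R cells under oxaliplatin. EP300 (chr22:41092592-41180077, GRCh38) had 2151, 2102 and 2361 normalized counts in HCT116 control samples and 2224, 2525 and 2177 in HCT116 E1A samples. The 2 groups overlapped, and the log2 fold change was 0.07 (SE 0.25). In HCT116 oxpl-R cells EP300 had 1680, 1664 and 1350 normalized counts without and 1834, 1492 and 1320 with doxycycline, a log2 fold change of -0.01 (SE 0.25). CREBBP (chr16:3725054-3880713) had 2497, 2487 and 2753 normalized counts in HCT116 control samples against 3127, 3023 and 2771 with doxycycline. These CREBBP values did not overlap, as was the case for 10.4% of genes in that direction, and the log2 fold change of 0.21 (SE 0.20) was not called.

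The p400/TIP60 and CtBP genes had differences of similar size. Over the 4 doxycycline comparisons the log2 fold changes ranged from -0.04 to 0.08 for EP400, from -0.14 to 0.16 for TRRAP, from -0.19 to 0.13 for KAT5, from -0.09 to 0.10 for CTBP1 and from -0.24 to -0.08 for CTBP2. KAT2A ranged from -0.05 to 0.04. Standard errors were 0.17 to 0.25 for these genes and for EP300 and CREBBP, so differences of that size were not detectable with 3 samples per group.

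KAT2B (chr3:20040446-20154404) had the largest difference of the 9 members in 3 of the 4 doxycycline comparisons, the exception being HCT116 oxpl-R cells under oxaliplatin. It had 139, 209 and 149 normalized counts in HCT116 control samples and 320, 310 and 264 in HCT116 E1A samples. The 2 groups did not overlap, and the fold change was 1.80 (log2 0.84, SE 0.28, adjusted p = 0.338 by edgeR). In the fit of these 6 samples alone, KAT2B was called at a log2 fold change of 0.80 (adjusted p = 0.00453 by edgeR), where 9.5% of 16417 genes were called.

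In the other 3 doxycycline comparisons KAT2B was also higher on average, with overlapping samples and log2 fold changes of 0.54 (SE 0.27) in HCT116 oxpl-R cells, 0.45 (SE 0.28) in HCT116 cells under oxaliplatin and 0.15 (SE 0.27) in HCT116 oxpl-R cells under oxaliplatin. The mean over the 4 comparisons, a contrast added after the values were seen, gave a log2 fold change of 0.50 (SE 0.14, adjusted p = 0.0317 by edgeR) for KAT2B and called none of the other 8 members, against 3.99% of all genes. Leaving out 1 library ended this call for 13 of the 24 libraries, with values of 0.42 to 0.49 and adjusted p of 0.0541 to 0.0901 by edgeR. These were HCT116 control replicates 1 and 3, HCT116 E1A replicates 1 and 2, HCT116 oxaliplatin replicates 1 and 2, HCT116 E1A + oxaliplatin replicates 2 and 3, HCT116 oxpl-R control replicate 2, HCT116 oxpl-R E1A replicate 3, HCT116 oxpl-R oxaliplatin replicates 1 and 2 and HCT116 oxpl-R E1A + oxaliplatin replicate 3. 

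Differences between responses were tested as well. The interaction terms called 0 of the 9 members in each of 5 tests (between the lines and, within a line, between presence and absence of doxycycline), by edgeR and by DESeq2, and 1 of them, KAT2B, had an unadjusted p below 0.05, for the response to oxaliplatin.

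The second question was whether oxaliplatin changed the cofactors. In none of the 4 single comparisons was a member called, while 17.4% of genes were called in HCT116 cells, 6.11% in HCT116 oxpl-R cells, 8.09% in HCT116 cells with doxycycline and 2.8% in HCT116 oxpl-R cells with doxycycline. Unadjusted p fell below 0.05 for 1, 1, 3 and 0 members in these comparisons, and DESeq2 called 1, 0, 2 and 0.

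KAT2A (chr17:42113111-42121367) had its larger differences in HCT116 cells. It had 2156, 2228 and 2546 normalized counts in HCT116 control samples against 3163, 3288 and 2740 in oxaliplatin samples, and 2423, 2498 and 2213 in E1A samples against 3144, 3154 and 3154 in E1A + oxaliplatin samples. In both pairs of groups the treated samples lay above all untreated ones, which held for 15.2% and 11.3% of genes. The log2 fold change was 0.41 (SE 0.17) in both comparisons, with adjusted p of 0.104 and 0.160 by edgeR. Without HCT116 oxaliplatin replicate 3 the first of these was called at 0.53 (adjusted p = 0.0313 by edgeR). In HCT116 oxpl-R cells the KAT2A samples overlapped, with log2 fold changes of 0.17 and 0.22 (SE 0.17 each).

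In the fit of all 24 samples EP300, EP400, CREBBP, TRRAP and CTBP2 had negative log2 fold changes in all 4 oxaliplatin comparisons. In HCT116 oxpl-R cells EP300 had 1680, 1664 and 1350 normalized counts without the drug and 773, 1168 and 1076 with it. The groups did not overlap, which held for 9.01% of genes in this direction, and the log2 fold change was -0.64 (SE 0.26, adjusted p = 0.166 by edgeR). EP400 (chr12:131949942-132080460) had 1613, 1558 and 1481 normalized counts without and 1436, 1104 and 935 with the drug in HCT116 oxpl-R cells. These too did not overlap, at a log2 fold change of -0.42 (SE 0.22), and neither did those of CREBBP, at -0.39. For HCT116 oxpl-R oxaliplatin replicate 1, the library with 773 for EP300, the 2 deposited tables differed. The second table was higher by 1.34 for EP300 and 1.15 for CREBBP on the log2 scale. Over 10 alternatives the log2 fold change in this comparison ranged from -0.65 to -0.21 for EP300 and from -0.40 to 0.20 for CREBBP.

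In HCT116 cells EP300 and EP400 split the treated group. After oxaliplatin EP300 had 1535, 1132 and 2546 normalized counts, and after E1A + oxaliplatin 2413, 1167 and 1407. EP400 had 1702, 1631 and 2718 after oxaliplatin and 2840, 1487 and 1610 after E1A + oxaliplatin. The high value was each time that of HCT116 oxaliplatin replicate 3 or of HCT116 E1A + oxaliplatin replicate 1, the libraries that resembled each other. Without them the log2 fold change of EP300 after oxaliplatin in HCT116 cells was -0.62 and called (adjusted p = 0.0299 by edgeR), against -0.34 with them. That fit also called EP300 (-0.77, adjusted p = 0.0186) and EP400 (-0.6, adjusted p = 0.0274 by edgeR) for oxaliplatin in HCT116 cells with doxycycline. In HCT116 oxpl-R cells it called EP300 (-0.65, adjusted p = 0.0248 by edgeR). Between the lines under both treatments EP400 was not called in it (-0.39, adjusted p = 0.147 by edgeR).

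Over the 4 oxaliplatin comparisons together, a contrast added after the values were seen, EP300 fell by 0.45 on the log2 scale (SE 0.13, adjusted p = 0.00830), EP400 fell by 0.33 (SE 0.11, adjusted p = 0.0248) and KAT2A rose by 0.30 (SE 0.09, adjusted p = 0.00856 by edgeR). The call of these 3 members stands beside 25.7% of all genes and 42.3% of the 11097 genes with at least 10 counts on average. The call of EP300 ended on the second table, by edgeR (-0.29, adjusted p = 0.159) and by limma (-0.36, adjusted p of 0.102 and 0.0957 with pseudocounts of 1 and 0.1). That of EP400 ended with RLE scaling (-0.29, adjusted p = 0.0548 by edgeR) and with DESeq2 (-0.29, adjusted p = 0.0641). CREBBP (-0.26, SE 0.10) and TRRAP (-0.27, SE 0.10) were not called, with adjusted p of 0.0533 and 0.0567 by edgeR. Leaving out 1 library ended the call of EP400 for 11 of 24 libraries (-0.30 to -0.25, adjusted p of 0.062 to 0.123 by edgeR), namely HCT116 control replicate 3, HCT116 oxaliplatin replicates 1 and 2, HCT116 E1A + oxaliplatin replicates 2 and 3, HCT116 oxpl-R control replicates 1 and 2, HCT116 oxpl-R E1A replicate 2, HCT116 oxpl-R oxaliplatin replicates 2 and 3 and HCT116 oxpl-R E1A + oxaliplatin replicate 3. CREBBP became called without HCT116 oxaliplatin replicate 3, HCT116 E1A + oxaliplatin replicate 1, HCT116 oxpl-R control replicate 3 or HCT116 oxpl-R E1A + oxaliplatin replicate 1 or 2 (-0.29 to -0.27). TRRAP became called without HCT116 oxaliplatin replicate 3, HCT116 E1A + oxaliplatin replicate 1, HCT116 oxpl-R oxaliplatin replicate 1 or HCT116 oxpl-R E1A + oxaliplatin replicate 1 (-0.34 to -0.29). KAT5, CTBP1, CTBP2 and KAT2B had log2 fold changes of 0.02, -0.02, -0.19 and -0.22 and were not called.

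The balance of long and short transcripts in the library moved with the level of the long members in HCT116 cells. It is expressed here as the median log2 deviation of 850 genes with canonical transcripts of at least 8 kb minus that of 3445 genes with transcripts of 1.5 to 3 kb. EP300, CREBBP, EP400 and TRRAP have canonical transcripts of 8.78, 10.79, 12.29 and 12.68 kb, and CTBP2 has one of 8.47 kb. Those of KAT5, KAT2A and CTBP1 have 2.08, 3.12 and 2.49 kb. The balance fell by 0.49 on the log2 scale with oxaliplatin in HCT116 cells and by 0.10 in HCT116 oxpl-R cells. It was 0.33 in HCT116 oxaliplatin replicate 3 and 0.04 in HCT116 E1A + oxaliplatin replicate 1, against -0.49 to -0.28 in the other 4 oxaliplatin-treated HCT116 samples. In HCT116 oxpl-R cells the balance and the level of the long members did not go together in every sample. Oxaliplatin replicate 3 had the balance 0.01 while EP300, CREBBP, EP400 and TRRAP lay at -0.77 on average. The EP300 difference with oxaliplatin was -0.64 in HCT116 oxpl-R and -0.34 in HCT116 cells. It was -0.65 and -0.62 without the 2 HCT116 libraries that stood apart. In a fit that removed the trend with transcript length, the mean response to oxaliplatin was -0.23 for EP300 (adjusted p = 0.0798 by edgeR) and -0.06 for EP400 (adjusted p = 0.876 by edgeR), while KAT2A stayed at 0.30 (adjusted p = 0.00671 by edgeR). CREBBP and TRRAP moved to 0.0 and -0.03 and CTBP2 from -0.19 to 0.06. The differences of CTBP2 between the lines were no longer called in the controls (-0.46, adjusted p = 0.101) or with doxycycline (-0.52, adjusted p = 0.0594 by edgeR). Under oxaliplatin this fit newly called the lines apart for CTBP2 (-0.63, adjusted p = 0.0101) and TRRAP (-0.61, adjusted p = 0.00695 by edgeR). It also newly called CTBP1 between the controls (-0.47) and KAT5 (-0.56) and KAT2B (0.75) between the lines with doxycycline. The part of transcript length or RNA integrity in the lower level of the long cofactor mRNAs was not tested further. In bulk RNA, fewer cells with a transcript and less of it per cell cannot be told apart.

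**Figure D2:**
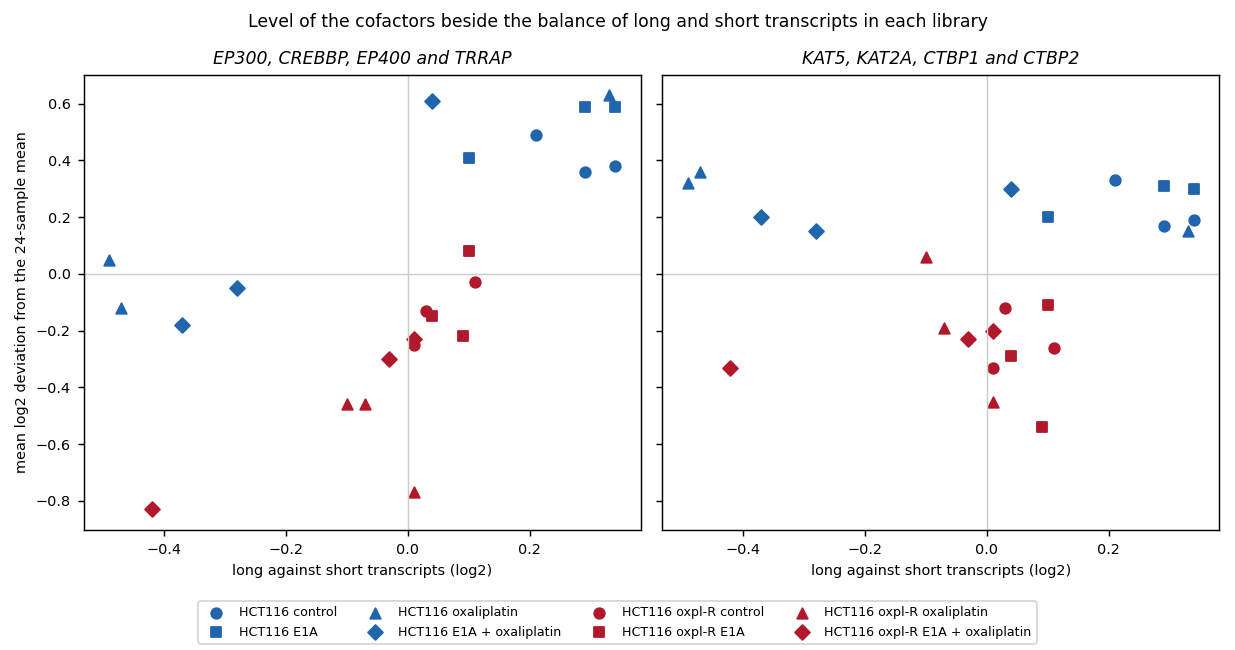
Mean log2 deviation from the 24-sample mean (vertical axis) of the 4 members with the longest mRNAs (left) and of KAT5, KAT2A, CTBP1 and CTBP2 (right, where CTBP2 is also long at 8.47 kb) against the balance of long and short transcripts in the library (horizontal axis, log2); each point is 1 sample. The 4 HCT116 samples with a balance of -0.49 to -0.28 have the lowest values of that line on the left, between -0.18 and 0.05, and are not the lowest as a group on the right.

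The third question was whether the resistant line differed from the parental line in its supply of cofactors. The untreated controls separated for all 9 members, with KAT2B higher and the other 8 lower in HCT116 oxpl-R cells, where 17.5% of all genes separated in each direction (TRRAP, from the second table, 15.4% for lower). The test over all 24 samples called 3 of the 9, against 14.1% of genes of the count table and 23.6% of those with at least 10 counts on average. CREBBP was lower, with 1688, 1535 and 1403 normalized counts in HCT116 oxpl-R against 2497, 2487 and 2753 in HCT116 control samples (log2 fold change -0.74, SE 0.20, adjusted p = 0.00964 by edgeR). CTBP2 (chr10:124984317-125161170) was lower, with 4183, 4292 and 3308 against 5945, 5992 and 6185 (log2 fold change -0.62, SE 0.17, adjusted p = 0.0116 by edgeR). KAT2B was higher, with 372, 252 and 339 against 139, 209 and 149 (log2 fold change 0.95, SE 0.28, adjusted p = 0.0172 by edgeR).

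The remaining 6 members had log2 fold changes of -0.60 (EP400), -0.49 (EP300), -0.48 (KAT2A), -0.42 (CTBP1), -0.36 (TRRAP) and -0.34 (KAT5) in the controls and were not called there by the fit of all 24 samples. Over the 10 alternatives other than a replicate left out, KAT2A was called in 8, CTBP1 in 5 and EP400 in 2. DESeq2, for example, called KAT2A at -0.45 (adjusted p = 0.0258). In a fit of the 6 control samples alone, with its own smaller estimate of the spread, 9 of 9 members were called, while the share of all genes called was 28.3%. Leaving out HCT116 oxpl-R control replicate 3 ended the calls of CREBBP (-0.68, adjusted p = 0.0512) and CTBP2 (-0.51, adjusted p = 0.0959 by edgeR). Leaving out HCT116 control replicate 1 or 3 or HCT116 oxpl-R control replicate 1 ended that of KAT2B, at 0.82 to 0.87 and adjusted p of 0.0934 to 0.0963 by edgeR.

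The direction of the difference between the lines was the same under each treatment for all 9 members. With oxaliplatin, alone or with doxycycline, the samples of the lines overlapped in some comparisons for EP300, TRRAP and CTBP1. With doxycycline 5 members were called lower, CREBBP (-0.85), EP400 (-0.72), CTBP2 (-0.64), CTBP1 (-0.61) and KAT2A (-0.57), beside 7.75% of genes lower. Under oxaliplatin 6 were called, CREBBP (-1.06), EP400 (-0.80), EP300 (-0.79), KAT2A (-0.72) and KAT5 (-0.48) lower and KAT2B higher (1.81, SE 0.28, adjusted p = 9.2e-06 by edgeR), beside 12% of genes lower and 13.7% higher. Under both treatments 5 were called, CREBBP (-0.96), KAT2A (-0.76), EP400 (-0.75) and KAT5 (-0.63) lower and KAT2B higher (1.52, SE 0.28, adjusted p = 0.000159 by edgeR), beside 8.92% lower and 10.3% higher. CREBBP was the one member called in all 4 treatments. With limma, which was run on the second table only, its call remained only under both treatments. The limma values were -0.81 in the controls (adjusted p of 0.0553 and 0.0511 with pseudocounts of 1 and 0.1) and -0.8 with doxycycline (0.0573 and 0.0542). Under oxaliplatin limma gave -0.55 (adjusted p of 0.165 and 0.158).

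Several of these calls rested on single libraries. In the comparison with doxycycline, leaving out HCT116 E1A replicate 1 or 2 or HCT116 oxpl-R E1A replicate 2 or 3 left 3, 2, 2 and 1 members called, and without HCT116 oxpl-R E1A replicate 1 KAT5 was called as well (-0.58, adjusted p = 0.0348 by edgeR). Under oxaliplatin, leaving out HCT116 oxaliplatin replicate 3 ended the calls of EP300 (-0.47, adjusted p = 0.19) and EP400 (-0.58, adjusted p = 0.0571 by edgeR), and leaving out HCT116 oxpl-R oxaliplatin replicate 1 ended that of EP300 (-0.63, adjusted p = 0.11 by edgeR). KAT5 lost its call there without HCT116 oxaliplatin replicate 1 or 2 or HCT116 oxpl-R oxaliplatin replicate 2 or 3 (-0.52 to -0.46, adjusted p of 0.0504 to 0.0829 by edgeR). Under both treatments EP400 lost its call without HCT116 E1A + oxaliplatin replicate 1 (-0.39, adjusted p = 0.237) or HCT116 oxpl-R E1A + oxaliplatin replicate 3 (-0.69, adjusted p = 0.0529 by edgeR). In HCT116 oxpl-R oxaliplatin replicate 1 the second table gave EP300 and CREBBP values that were higher than the count table by 1.34 and 1.15 on the log2 scale, whereas in the other samples this ratio lay between -0.20 and 0.38 for EP300 and between -0.23 and 0.39 for CREBBP. On the second table the differences under oxaliplatin were -0.36 for EP300 (adjusted p = 0.429) and -0.54 for CREBBP (adjusted p = 0.138 by edgeR). KAT5, with a ratio of 0.59 between the tables in the same library, was at -0.20 there (adjusted p = 0.56) and EP400 at -0.57 (adjusted p = 0.0775 by edgeR), so that these 4 calls ended on the second table. In the fit of the 6 samples alone the calls of EP300 (-0.88, adjusted p = 0.0543) and KAT5 (-0.57, adjusted p = 0.0894 by edgeR) ended. CTBP2 was not called under oxaliplatin by the fit of all 24 samples (adjusted p = 0.0544 by edgeR) but was called lower in 7 of 10 alternatives. Among these were DESeq2 (-0.49, adjusted p = 0.00812) and the replicate number as a block (-0.44, adjusted p = 0.0241 by edgeR). CTBP2 was also called there without HCT116 oxaliplatin replicate 3 or HCT116 oxpl-R oxaliplatin replicate 2 (-0.57 to -0.53), and TRRAP without HCT116 oxpl-R oxaliplatin replicate 1 (-0.74, adjusted p = 0.00875 by edgeR).

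Averaged over the 4 treatments, a contrast added after the values were seen, all 9 members were called, as were 39% of all genes and 61.2% of those with at least 10 counts on average (38% of all genes of the second table, which holds TRRAP). By role, CREBBP fell by 0.90 (SE 0.10) and EP300 by 0.57 (SE 0.13) on the log2 scale in HCT116 oxpl-R cells. In the p400/TIP60 complex EP400 fell by 0.72 (SE 0.11), KAT5 by 0.48 (SE 0.08) and TRRAP by 0.38 (SE 0.10). Of the SAGA acetyltransferases KAT2A fell by 0.63 (SE 0.09) and KAT2B rose by 1.23 (SE 0.14). CTBP2 fell by 0.50 (SE 0.09) and CTBP1 by 0.36 (SE 0.08). Leaving out any 1 library, or both HCT116 libraries that stood apart, ended none of these calls. On the second table EP300 was at -0.35 and not called (adjusted p = 0.055 by edgeR).

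Over 12 samples per line CREBBP ranged from 1918 to 3360 normalized counts (median 2625) in HCT116 cells and from 981 to 1884 (median 1455) in HCT116 oxpl-R cells. KAT5 (chr11:65711996-65719604) ranged from 2133 to 2755 (median 2359) and from 1358 to 2116 (median 1641). For these 2 genes the lines did not overlap across treatments. KAT2B ranged from 76.4 to 320 (median 171) in HCT116 cells and from 252 to 618 (median 393) in HCT116 oxpl-R cells, where 11 of 12 samples lay above all HCT116 samples. CTBP1 (chr4:1211445-1250333), with medians of 6048 and 4931, and TRRAP (chr7:98877933-99050831), with medians of 3737 and 2758 length-scaled counts, differed least.

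The estimates for KAT2B under oxaliplatin had opposite signs in the 2 lines. In HCT116 cells it had 110, 76.4 and 176 normalized counts with the drug against 139, 209 and 149 without it, and in HCT116 oxpl-R cells 323, 347 and 610 against 372, 252 and 339. The groups overlapped in each line, with log2 fold changes of -0.45 (SE 0.28) and 0.41 (SE 0.27). The interaction term of 0.86 (SE 0.39, unadjusted p = 0.0346, adjusted p = 0.269 by edgeR's quasi-likelihood test) was not called. With doxycycline present, KAT2B in HCT116 cells had 155, 176 and 167 normalized counts with oxaliplatin against 320, 310 and 264 without it. The groups did not overlap, which held for 14.6% of genes in this direction, and the log2 fold change of -0.85 (SE 0.28, adjusted p = 0.0544 by edgeR) was not called.

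Because chromosome copy number varies in HCT116 oxpl-R cells, each member was set beside the expressed genes within 5 Mb of it, with positions from GENCODE on GRCh38. KAT2B lay in a neighbourhood that was higher as a whole, with a median log2 fold change of 0.90 over 21 genes (quartiles 0.48 and 1.13) for the mean over the treatments. KAT2B itself, at 1.23, lay above 16 of the 21, and all 635 expressed genes of chromosome 3 had a median of 0.54. CREBBP lay in a lower neighbourhood, with a median of -0.40 over 117 genes, and at -0.90 was below 104 of them. CTBP1 at -0.36 was close to its 39 neighbours (median -0.26), of which 19 lay below it.

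As for KAT2B, CREBBP and CTBP1, the median of the neighbours was nearer to 0 than the member for EP300, EP400, TRRAP, KAT5, KAT2A and CTBP2. The medians were -0.01 over 109 genes for EP300, -0.25 over 17 for EP400, -0.02 over 98 for TRRAP, -0.11 over 175 for KAT5, -0.23 over 157 for KAT2A and -0.05 over 31 for CTBP2. EP300 at -0.57 lay below 95 of its 109 neighbours, and CTBP2 lay below 26 of 31. The neighbours of CTBP2 had medians of -0.35 in the controls and -0.25 with doxycycline, and of 0.30 under oxaliplatin and 0.16 under both, which the mean over treatments does not show. Karyotyping in the study found, relative to a tetraploid set, extra copies of the chromosomes that carry KAT2B and EP300. It found fewer copies of the chromosome that carries CTBP1. It also found loss of most of the long arm in a copy of the chromosome that carries CTBP2. In both lines it described translocations of the chromosomes that carry CREBBP and KAT2A, and a duplication in the long arm of the chromosome of CTBP2. For the chromosome of CREBBP its statements differ between a reduced and a tetraploid number. Gene copy number was not measured here, and its part in these differences was not tested.

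For each member the gene whose log2(CPM + 1) followed it most closely over the 24 samples was found among the genes of its table with at least 10 counts on average. The measure is a description, since samples share lines and treatments. CREBBP was followed most closely by MAML1 (r = 0.983, Spearman's rho 0.977), a coactivator of Notch signalling, with r = 0.944 over the 12 HCT116 and 0.958 over the 12 HCT116 oxpl-R samples. EP300 was followed by PRRC2C (0.970), EP400 by HUWE1 (0.976), a ubiquitin ligase, and KAT2A by ABHD16A (0.970). TRRAP was followed most closely by EP400 (0.938), its partner in the p400 complex, with 0.952 and 0.875 within the lines. EIF4G1 followed TRRAP almost as closely (0.937). CTBP1 was followed by FBXO31 (0.956), CTBP2 by RNF4 (0.952) and KAT5 by ERAL1 (0.941), which for KAT5 fell to 0.643 within HCT116 cells. The closest gene to KAT2B was ATP6V1C2, a subunit of the vacuolar proton pump (0.920), with 0.905 within HCT116 and 0.376 within HCT116 oxpl-R cells.

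The partners of the cofactors were read from lists chosen by symbol. With doxycycline none of the partners of TIP60, SAGA and ATAC or CtBP, and none of the other acetyltransferases, was called in any of the 4 comparisons, where 0.0874% to 1.39% of all genes were called. Of 18 partners of p300 and CBP, 2 were called, both in HCT116 oxpl-R cells under oxaliplatin, where 1.39% of all genes were called. These were MYB, a transcription factor that uses CBP, with 88.9 ± 16.9 against 30.6 ± 23.8 normalized counts (SD, n = 3, log2 fold change 1.55, adjusted p = 0.0149 by edgeR), and CITED1, a CBP-binding coactivator, with 157 ± 65.2 against 58.4 ± 5.70 (1.43, adjusted p = 0.00313 by edgeR). In the same comparison the E2F targets CCNE2 (2.48), E2F1 (2.20) and CDT1 (1.82) had the largest log2 fold changes of their list, whereas the 9 cofactors had a median of 0.

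Between the untreated lines 14.1% of all genes and 23.6% of those with at least 10 counts on average were called, and the counts of partners stand beside these shares. Of 12 other acetyltransferases 6 were lower and 0 higher, with a median log2 fold change of -0.56 against -0.03 over all 11097 genes with at least 10 counts on average. The largest differences were those of NCOA1 (-1.0), a nuclear receptor coactivator, KAT8 (-0.83), the acetyltransferase MOF, and KAT6A (-0.80). Of 16 CtBP partners tested of 19 listed, 8 were lower and 2 higher (median -0.57), with RBBP8, which encodes the DNA end-resection factor CtIP, at -1.64, and HIC1 (2.60) and MECOM (1.80), which encode repressors that recruit CtBP, higher.

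Of 13 TIP60 partners tested of 15 listed, RUVBL2 was lower (-0.68) and RUVBL1, which encodes its partner ATPase, was higher (0.67), with a median of 0.01. Of 22 SAGA and ATAC partners, 16 of them read from the second table, 3 were lower, SF3B3 (-0.70), TADA2B (-0.62) and ATXN7L3 (-0.59), and 0 higher, with a median of -0.03. The counts for these 2 lists were near the share of all genes. Of 18 partners of p300 and CBP 4 were lower and 2 higher (median -0.38), among them KLF5 (1.51) and the CREB coactivator CRTC3 (-1.03).

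Some counts could be shared with other genes. EP300-AS1, which overlaps EP300 on the other strand, had 90.8 to 446 estimated counts per sample, and CTBP1-DT, which overlaps the start of CTBP1, had 226 to 731. CTBP1-AS had at most 7 counts and EP400P1, a pseudogene of EP400, at most 6.6. The pseudogenes of CTBP2 had at most 6 counts each in a sample. Strand use in the counting is not given in the sources used here, so reads of overlapping genes cannot be told apart.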

How the data were processed

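RNA-seq libraries of 24 samples were analysed. The authors trimmed reads with Trimmomatic, quantified them with Salmon 1.6.0 on GENCODE transcripts (GRCh38) and summed them to genes with tximport. The authors deposited estimated counts, here rounded to whole numbers, in a table that holds 33113 genes and ends at SETP6. A second deposited table, named as TPM but read from its values as length-scaled estimated counts, holds 37967 genes up to TSC22D3 and was used for TRRAP and as an alternative. Later genes were not analysed here. Totals were 24838095 to 37927720 counts per sample.

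Samples were grouped by their labels, which call the replicates biological. One edgeR 4.0.16 quasi-likelihood fit of all 8 groups (R 4.3.3, TMM scaling, genes with any count, 19453 in the count table and 22833 in the second) was tested per comparison with Benjamini-Hochberg adjustment over all genes of the table. Normalized counts are scaled by TMM library size. Scripts were tested on simulated counts. Alternatives were DESeq2 1.42.0, limma 3.58.1 on log2(value + pseudocount) with pseudocounts of 1 and 0.1, RLE scaling, filterByExpr, the compared groups alone, the replicate number as a block, each replicate left out and the second table. Limma was run on the second table only, so its values differ from the main fit in both table and method. Removal of the trend with transcript length, the leaving out of 2 libraries together and the 3 mean contrasts were chosen after seeing the data. Same-numbered replicates deviated together (every correlation above 0.1) in 2 of 12 comparisons, the lines under oxaliplatin (0.141 to 0.253) and oxaliplatin with doxycycline in HCT116 oxpl-R cells (0.419 to 0.529). The pairing in these 2 comes from the data, since the labels give only the number.

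All 9 members were described in every comparison. From each list of partners, at most 3 called genes with the largest absolute log2 fold change were named. A gene that this rule would name is not reported here. Members and lists were chosen with earlier results of these data known.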

Additional observations from a re-analysis of the deposited data

How the results depend on the processing

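Over 20 comparisons, the 180 values of the members were recomputed under alternatives 3636 times. A call was lost 93 times, 50 of them with a replicate left out, and gained 71 times. No called value changed sign, and of 404 counts of members called, 356 stayed within 1.5 times.

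With the compared groups alone, 1 member was called for HCT116 E1A against control, 1 for oxaliplatin in HCT116 cells without and 1 with doxycycline, and 9 between the control lines, against 0, 0, 0 and 3. For oxaliplatin in HCT116 cells RLE scaling, filterByExpr and DESeq2 each called 1. With doxycycline present filterByExpr called 1, DESeq2 2, and limma 1 with either pseudocount. Limma, run on the second table, called 2 members between the lines with doxycycline, with either pseudocount, against 5. Under oxaliplatin it called 3 (pseudocount 1, KAT2A, KAT2B and, newly, CTBP2) or 2 (pseudocount 0.1), against 6. The second table called 5 between the controls, 3 with doxycycline and 2 under oxaliplatin. Without the 2 HCT116 libraries that stood apart, 2, 1 and 2 members were called for oxaliplatin in HCT116, in HCT116 oxpl-R and in HCT116 cells with doxycycline, 5 between the controls and 5 for the mean response to oxaliplatin. Removing the length trend left 1 of 3 for that mean. The cause of these differences was not tested.

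With the replicate number as a block, 1 member (KAT2B) was called for oxaliplatin in HCT116 cells with doxycycline and 5 for the mean response to oxaliplatin. In the 2 comparisons whose numbers paired the samples, the block changed only the call of CTBP2 between the lines under oxaliplatin.

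With 1 replicate left out, 0 to 1 members were called for oxaliplatin in HCT116 cells, 1 to 3 between the control lines, 1 to 6 with doxycycline, 5 to 6 under oxaliplatin, 4 to 5 under both, 0 to 1 for the mean response to doxycycline and 2 to 5 for that to oxaliplatin. With 3 samples per group, small changes of these genes were not detectable.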

Other observations

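Histone deacetylases, which CtBP and other corepressors recruit, were read from a list of 17 genes that shares HDAC1 and HDAC2 with the list of CtBP partners. In untreated HCT116 oxpl-R against HCT116 cells 2 were called higher and 2 called lower, close to the 23.6% of genes with at least 10 counts on average that were called, and the list had a median log2 fold change of 0.01. HDAC4, a deacetylase that shuttles between nucleus and cytoplasm, was higher (1.45, adjusted p = 3.74e-05), whereas HDAC2, a subunit of several corepressor complexes (-1.19, adjusted p = 0.000994), and the NAD-dependent deacetylase SIRT1 (-0.75, adjusted p = 0.00970 by edgeR) were lower. None of the list was called in the 4 doxycycline comparisons.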
